A study of Mus musculus with 6 samples.

Results

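The genes described here encode the enzymes and readers that surround histone deacetylases in chromatin: histone acetyltransferases, bromodomain proteins, sirtuins, enzymes of DNA methylation and of histone methylation, and subunits of the SWI/SNF remodelling complexes. A list of 47 mouse genes was taken by name, by a rule that uses no measured value but with earlier results of these data known, to ask whether their transcripts differed in mouse colon when Hdac2, which encodes the class I histone deacetylase HDAC2, had been deleted in the intestinal epithelium. Of the 47 genes, 46 had at least 1 probe set annotated to them alone (107 probe sets in all) and 45 entered the test, out of 18193 genes on the array and 10916 tested. Tet1, at a log2 signal of 5.48 in control and 5.46 in HDAC2 KO, lay below the signal filter of 6.66, and Suv39h1 was not analysed here.

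Histone acetyltransferases place acetyl groups on lysines of histone tails, bromodomain proteins bind those acetylated lysines, and histone deacetylases remove them. Sirtuins are a separate class of deacetylase that depends on NAD. DNA methyltransferases and the histone methyltransferases of the polycomb and H3K9 systems are linked to repressed chromatin and work beside deacetylase complexes, whereas SWI/SNF complexes use ATP to move nucleosomes. In the intestine these factors take part in the renewal of crypts and in the differentiation of their daughter cells.

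Total RNA was profiled on 3 arrays of control mice and 3 arrays of HDAC2 KO mice, all untreated and on normal diet, from a stock mixed from CD-1, 129 and C57BL/6. The HDAC2 KO mice carried a floxed Hdac2 gene and a Cre transgene driven by the villin promoter, whose activity marks the intestinal epithelium, so that Hdac2 is not targeted in the other cell types of the colon. Whether the controls carried floxed alleles or the Cre transgene, and the age and sex of the animals, are not given in the sources used here. The description label of the HDAC2 KO arrays also names HDAC1, and the labels name both colon epithelium and colon RNA. The source label numbers a mouse for each sample whereas the titles speak of mice, so that whether a sample is a single animal is not settled, and the p-values measure the spread between these samples.

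Values are log2 signal after RMA (robust multi-array averaging), with n = 3 arrays per group throughout. Each difference is HDAC2 KO minus control with its standard error (SE), and a gene was called when its limma adjusted p, Benjamini-Hochberg over all 10916 genes tested, was under 0.05. Array medians lay between 6.17 and 6.21, and the number of arrays limits the precision. Hdac2 itself, by its brightest probe set, read 10.40, 10.37 and 10.43 in control and 10.21, 10.12 and 10.24 in HDAC2 KO, without overlap. It differed by -0.21 (SE 0.040, limma adjusted p = 0.00893) and Hdac1, the closest paralog of Hdac2, by 0.15 (SE 0.039, adjusted p = 0.0321). Where the Hdac2 probes lie relative to the deleted part was not analysed here. Of the context lists, 14 of 17 colon epithelial genes had a positive difference (median of the 17, 0.087). Of these genes 5 were called higher, with Krt20 (0.48) and Car1 (0.46) the largest, and 12 were not called. All 11 leukocyte genes tested were called lower (median -0.68, Cd3d -1.37), as were all 6 adipocyte genes (median -1.50, Adipoq -3.02), and 16 of 23 proliferation genes were called higher (median 0.17). Of 15 smooth muscle and stroma genes, 3 were called higher and 3 lower (median 0.062, Cnn1 0.32, Pecam1 -0.34). In these bulk samples, fewer cells of a type and less RNA per cell cannot be told apart, and the part of these shifts in the results below was not tested.

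Most of these chromatin genes differed little between HDAC2 KO and control. Of the 45 tested, 6 were called: Uhrf1, Setdb1 and Brd9 were higher, and Arid1a, Kat6a and Crebbp were lower. That is 13.3% of the members, where 17.9% of all genes tested were called (9.68% higher and 8.2% lower, against 6.67% of the members in each direction). The share called was thus lower among the members than over all genes. It was slightly higher only after a further quantile normalization (22.2% against 20.5%) and at an adjusted p under 0.1 (26.7% against 25.5%). In every other alternative setting tried it was lower, such as 6.67% against 14.9% with arrays centred on their medians. The split into 3 higher and 3 lower was 3 higher and 0 lower after centring each array on its own median (910 and 718 over all genes). After the quantile normalization it was 4 higher and 6 lower (1236 and 1006 over all genes). The 17.9%, 9.68% and 8.2% over all genes are the background for the counts by role below. The largest difference was that of Uhrf1, at 1.24-fold, and the median absolute difference was 0.068 among the members and 0.065 over all genes tested. Leaving out a single array left between 1 and 5 of the 45 called. There was 1 without control replicate 1 (2.22%, against 10.4% of all genes). Without control replicate 2 there were 2 (4.44%, against 11.7%), and without HDAC2 KO replicate 1 also 2 (4.44%, against 11.8%).

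The small differences leaned downward. Signal was lower in HDAC2 KO for 34 of the 45 members (75.6%), where 48.6% of all genes tested were lower. The median difference of the members was -0.041, against 0.0032 over all genes tested, and it was -0.025 over the 39 members left by a filter at the 60th percentile of signal. The groups did not overlap for 21 members (46.7%), where 37.7% of all genes did so. They were higher for 7 of the 45 (15.6%, against 19.9% of all genes) and lower for 14 of the 45 (31.1%, against 17.7%). These shares describe the list and carry no test.

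**Figure D1:**
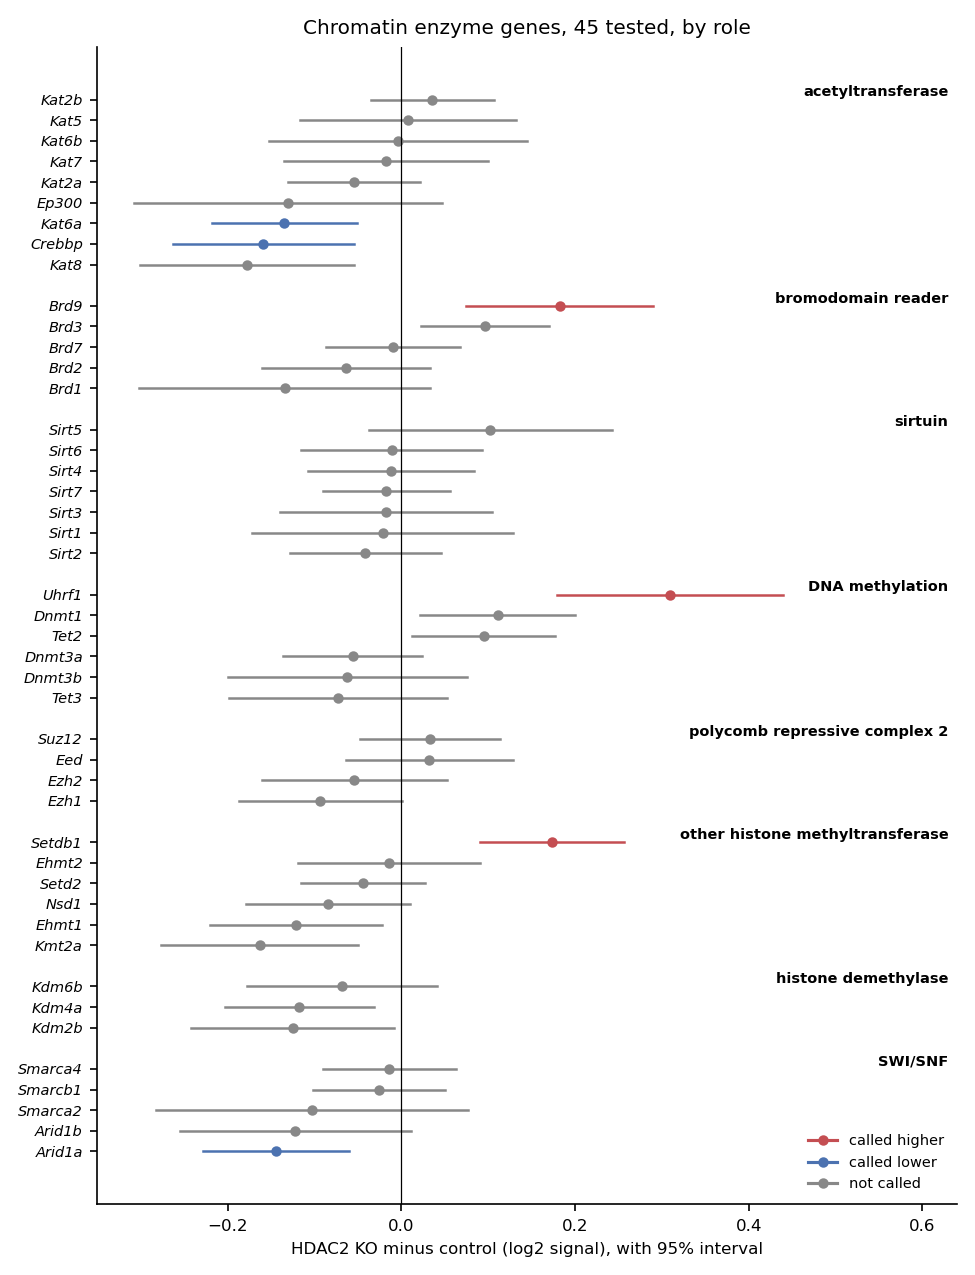
Difference of HDAC2 KO minus control in log2 signal (horizontal axis) for the 45 members tested, grouped by role, with the 95% interval of the limma fit (n = 3 arrays per group). Red marks the 3 members called higher, blue the 3 called lower and grey the 39 not called. No point lies beyond 0.31 in either direction, and 34 of the 45 points lie left of 0.

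**Figure D2:**
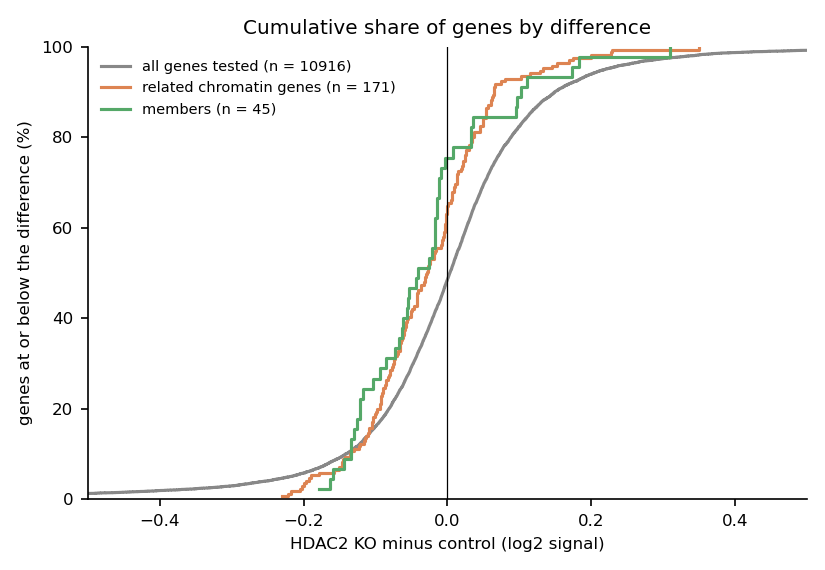
Cumulative percentage of genes (vertical axis) at or below a given difference in log2 signal (horizontal axis, drawn from -0.5 to 0.5) for all 10916 genes tested, 171 related chromatin genes and the 45 members. The curves of the members and of the related genes cross the middle of the vertical axis left of 0, at medians of -0.041 and -0.029, whereas that of all genes crosses it at 0.0032.

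The regulatory sequence before the start sites of 4 called members is shown so that the genes can be compared by base composition and by motifs tied to proliferation. The 250 bases before each start in the RefSeq annotation of GRCm38.p6 were searched on both strands for TTCCCGC (a core of E2F sites), CCGGAAG (a core of ETS sites) and CCAAT (the NF-Y box). Capitals mark these matches, of which no pair overlapped.
Uhrf1, chr17:56303087-56303336, plus strand: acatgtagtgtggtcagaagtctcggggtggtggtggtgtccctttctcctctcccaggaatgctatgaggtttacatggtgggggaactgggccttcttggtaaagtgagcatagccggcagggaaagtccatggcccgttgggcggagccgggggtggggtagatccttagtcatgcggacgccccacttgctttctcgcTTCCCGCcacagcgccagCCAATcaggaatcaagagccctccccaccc
Uhrf1, chr17:56304063-56304312, plus strand: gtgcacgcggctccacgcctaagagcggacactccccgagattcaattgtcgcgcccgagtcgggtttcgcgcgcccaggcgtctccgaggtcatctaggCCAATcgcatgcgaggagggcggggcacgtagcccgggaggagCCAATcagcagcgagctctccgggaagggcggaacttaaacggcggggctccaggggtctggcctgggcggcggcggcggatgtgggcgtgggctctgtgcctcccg
Setdb1, chr3:95357203-95357452, minus strand: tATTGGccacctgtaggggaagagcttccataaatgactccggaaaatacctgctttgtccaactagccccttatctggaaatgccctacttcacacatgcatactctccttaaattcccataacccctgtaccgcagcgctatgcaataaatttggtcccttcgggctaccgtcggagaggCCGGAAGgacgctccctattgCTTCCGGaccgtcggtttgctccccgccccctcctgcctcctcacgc
Arid1a, chr4:133753986-133754235, minus strand: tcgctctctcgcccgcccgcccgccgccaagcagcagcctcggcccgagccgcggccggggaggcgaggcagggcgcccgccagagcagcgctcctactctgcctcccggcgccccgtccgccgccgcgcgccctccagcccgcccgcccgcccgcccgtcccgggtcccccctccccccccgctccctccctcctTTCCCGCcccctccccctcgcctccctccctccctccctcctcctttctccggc
Crebbp, chr16:4213405-4213654, minus strand: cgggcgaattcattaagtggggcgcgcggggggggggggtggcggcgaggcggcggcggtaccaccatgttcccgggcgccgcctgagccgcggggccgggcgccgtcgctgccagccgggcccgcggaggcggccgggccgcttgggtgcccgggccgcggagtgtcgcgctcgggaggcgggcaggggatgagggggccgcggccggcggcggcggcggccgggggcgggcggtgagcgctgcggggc
The first Uhrf1 window held an E2F core and a CCAAT box, the second held 2 CCAAT boxes, Setdb1 held 2 ETS cores and a CCAAT box, Arid1a held an E2F core, and the Crebbp window held none of the 3. Not printed are a second Arid1a window, which held none, and 2 overlapping Brd9 windows, each with an ETS core. Kat6a, Nsd1 and Kdm6b had no entry. These letters are descriptions and not binding sites. For 44 of the 47 members, 64 windows were found, and they were rich in CpG: the median was 21 CpG per window, against 6 over all 32851 windows of the table, and 58 of the 64 held at least 10, which 37.8% of all windows did. An E2F core was found in 7 of the 64 (10.9%, against 3.82% of all windows), an ETS core in 8 (12.5%, against 6.91%) and a CCAAT box in 20 (31.3%, against 33.8%). The E2F and ETS cores contain a CpG and CCAAT does not, and these shares are not matched for base composition (median GC 67.4%, against 52.4%). Windows of a gene were counted separately, so that the ETS core shared by the overlapping Brd9 windows counts for both.

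Among the acetyltransferases, 2 of 9 were called, both lower, where 8.2% of all genes were called lower, and 0 were called higher. Crebbp encodes CBP, which together with its paralog p300, the product of Ep300, acetylates histones at enhancers and promoters. Crebbp read 10.28, 10.31 and 10.24 in control and 10.12, 10.04 and 10.19 in HDAC2 KO. All 3 HDAC2 KO arrays lay below all controls, with HDAC2 KO replicate 2 the lowest. The difference was -0.16 (SE 0.045, 1.12-fold, limma adjusted p = 0.0459), and a block for the replicate number ended the call (adjusted p = 0.0806). Of the 6 fits that leave out an array, the call held only in that without HDAC2 KO replicate 3, and in the other 5 its adjusted p ranged from 0.0754 to 0.145. The other 3 Crebbp probe sets were lower as well. Those above the signal filter differed by -0.22, without overlap of the groups, and by -0.073, with overlap. The last, at -0.41, had a mean signal of 4.92, below the filter.

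Ep300 read 10.68, 10.62 and 10.69 in control and 10.58, 10.34 and 10.67 in HDAC2 KO. The HDAC2 KO arrays spread more widely than the controls and overlapped them, with replicate 2 alone far below. The difference of -0.13 (SE 0.077, limma adjusted p = 0.295) was not called, and its 95% interval ran from -0.31 to 0.047. Since Crebbp and Ep300 shifted by similar amounts, the within-array difference between them moved by 0.029 (exact 2-sided permutation p = 0.6).

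Kat6a, which encodes the MYST-family acetyltransferase MOZ, read 9.75, 9.77 and 9.72 in control and 9.66, 9.61 and 9.57 in HDAC2 KO. The groups did not overlap. The difference was -0.13 (SE 0.036, 1.10-fold, limma adjusted p = 0.0381), and of the 6 fits with an array left out the call held only without HDAC2 KO replicate 1 (adjusted p 0.0581 to 0.124 in the other 5). It was also lost with the mean of its 3 probe sets (-0.10, adjusted p = 0.147) and with arrays centred on their medians (adjusted p = 0.0746). The Kat6a probe sets other than the one that stands for the gene had mean signals of 5.97 and 3.83, below the filter. Its paralog Kat6b read 9.16, 9.08 and 9.20 in control and 9.16, 9.01 and 9.26 in HDAC2 KO, with the groups fully interleaved (-0.0035, SE 0.064, adjusted p = 0.979).

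Kat8, which encodes the H4K16 acetyltransferase MOF, had the largest negative difference of all members without being called. It read 7.87, 7.94 and 7.74 in control and 7.71, 7.66 and 7.65 in HDAC2 KO. The groups separated only narrowly, between control replicate 3 and HDAC2 KO replicate 1. The difference was -0.18 (SE 0.053, limma adjusted p = 0.0551), and without control replicate 3 it was called (-0.23, adjusted p = 0.0153). Its only probe set may also detect other transcripts, by the suffix of its name.

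The remaining acetyltransferase genes differed by -0.055 to 0.036. These were Kat2a and Kat2b, which encode the catalytic subunits GCN5 and PCAF, Kat5, which encodes TIP60, and Kat7, which encodes HBO1, none of them called (limma adjusted p between 0.304 and 0.944). For Kat2a and Kat2b the groups did not overlap although the differences were small: Kat2a lay between 8.51 and 8.55 in control and at 8.48 ± 0.028 (SD) in HDAC2 KO, and Kat2b between 10.52 and 10.53 in control and between 10.54 and 10.57 in HDAC2 KO.

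Of the 5 bromodomain readers, Brd9 rose and 4 were not called. Brd9, which encodes a subunit of the non-canonical BAF form of SWI/SNF, read 8.71, 8.76 and 8.63 in control and 8.85, 8.95 and 8.85 in HDAC2 KO. All HDAC2 KO arrays lay above all controls, and replicate 2 was the highest. The difference was 0.18 (SE 0.047, 1.13-fold, limma adjusted p = 0.0315). The call was lost in 4 of the 6 fits that leave out an array: when control replicate 1 or 3 was left out, the adjusted p was 0.0919 or 0.0934, and when replicate 1 or 2 of HDAC2 KO was, 0.0637 or 0.0542.

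Brd7, whose product is a bromodomain subunit of the PBAF form, read 9.22, 9.21 and 9.18 in control and 9.23, 9.18 and 9.18 in HDAC2 KO, so that the groups overlapped (-0.0096, SE 0.033, adjusted p = 0.882). The within-array difference of Brd7 and Brd9 shifted by -0.19 without overlap, at the smallest p that 3 against 3 arrays can give (exact 2-sided permutation p = 0.1, 0.22 adjusted over 11 paralog pairs).

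Brd3 and Brd2, which encode BET-family readers, differed by 0.096 (SE 0.032, limma adjusted p = 0.0770) and -0.063 (SE 0.042, adjusted p = 0.351), and Brd1, a scaffold of MYST-family acetyltransferase complexes, by -0.13 (SE 0.073, adjusted p = 0.253). The 4 Brd3 probe sets disagreed in sign, from -0.096 to 0.096, so that no direction can be read for that gene.

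None of the 7 sirtuin genes was called by limma, and 0 had an unadjusted p under 0.05, where 31.6% of all genes tested did. Sirt1, whose nuclear product deacetylates histones and transcription factors, read 8.58, 8.54 and 8.67 in control and 8.56, 8.46 and 8.71 in HDAC2 KO. The groups were interleaved (-0.022, SE 0.065, adjusted p = 0.862). The other sirtuins were Sirt6 and Sirt7 with nuclear products, Sirt2 with a mainly cytosolic one, and Sirt3, Sirt4 and Sirt5 with mitochondrial ones, and their groups overlapped in every case. The 95% intervals of all 7, each for the probe set that stands for the gene, lay between -0.17 and 0.24. Sirt5 had the largest difference, 0.10 (SE 0.061, adjusted p = 0.297), and its other probe set above the filter differed by 0.21 without overlap of the groups (SE 0.074, 95% interval 0.033 to 0.38, adjusted p = 0.22 over all probe sets).

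**Figure D3:**
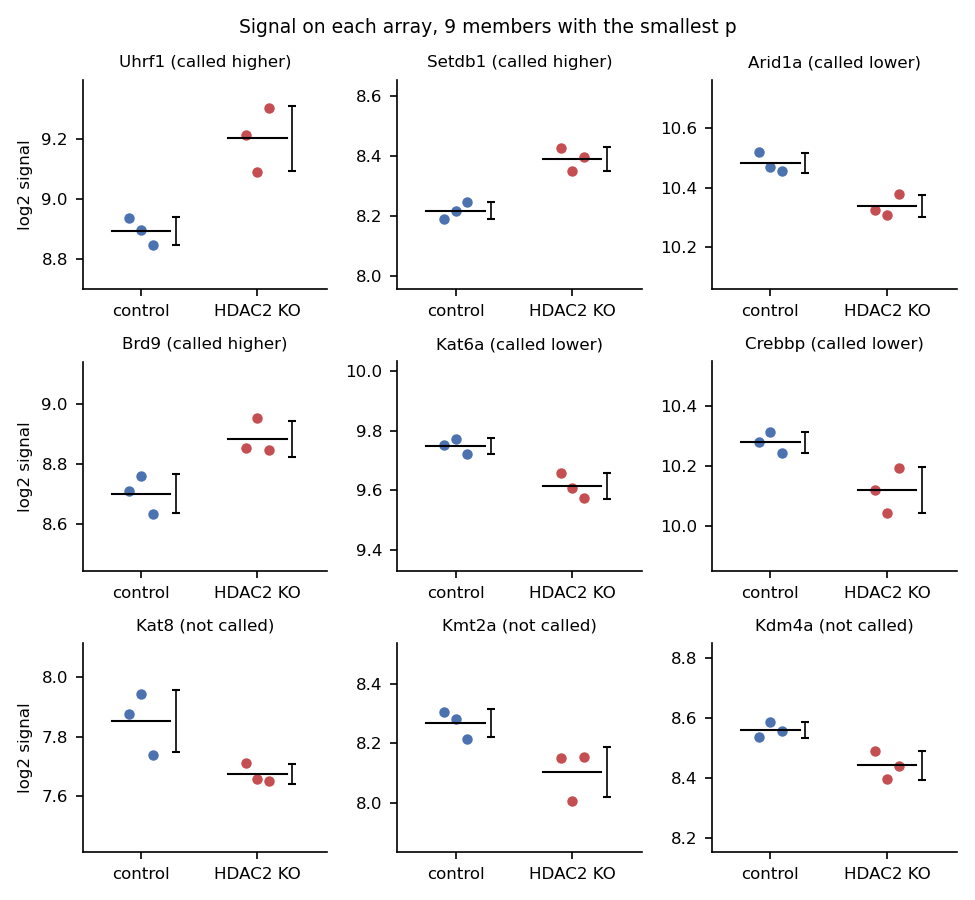
Log2 signal (vertical axis, spanning 0.7 in each panel) on the 3 control arrays (blue) and the 3 HDAC2 KO arrays (red) for the 9 members with the smallest p, with group means (bars) and SD (error bars). The points of a group are in the order of replicates 1, 2 and 3. The groups do not overlap in any of the 9 panels, and only the first 6 genes were called.

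Of the genes of DNA methylation, Uhrf1 rose and the other 5 tested were not called. Uhrf1 encodes the protein that binds hemimethylated DNA behind the replication fork and brings in the maintenance methyltransferase DNMT1. It read 8.94, 8.90 and 8.85 in control and 9.21, 9.09 and 9.30 in HDAC2 KO. Every HDAC2 KO array lay above every control, HDAC2 KO replicate 2 by the least. The difference was 0.31 (SE 0.056, 95% interval 0.18 to 0.44, 1.24-fold, limma adjusted p = 0.00770). It was called in all 17 alternative settings tried, including each of the 6 that leave out an array, with adjusted p between 0.000529 and 0.0380.

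The second Uhrf1 probe set gave the same picture, at 7.09, 7.15 and 7.01 in control and 7.36, 7.32 and 7.33 in HDAC2 KO (0.25, SE 0.053). In the fit of all 45037 probe sets without a signal filter, these 2 probe sets were the only ones called among the 107 of the members (limma adjusted p = 0.0492 and 0.0460), where 3.8% of all probe sets were called. With the replicate number as a block, 0 of the 107 were called in that fit, where 929 of all 45037 probe sets were. Hdac2 itself was not called in the fit of all probe sets either (adjusted p = 0.0768).

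Dnmt1 differed in the same direction as Uhrf1 without being called. It was 9.50, 9.46 and 9.46 in control and 9.60, 9.52 and 9.63 in HDAC2 KO, a difference of 0.11 (SE 0.039, limma adjusted p = 0.0874). The groups did not overlap, and all 3 Dnmt1 probe sets were higher, by 0.11 to 0.18. It was called without HDAC2 KO replicate 2 (0.14, adjusted p = 0.0271). Hells, a chromatin remodeller that works in DNA methylation and was listed among the related genes, was called higher as well (0.35, SE 0.066, adjusted p = 0.00853).

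Uhrf1, Dnmt1 and Hells are known to be expressed mainly in dividing cells, and the proliferation list moved with them. All 23 tested genes of that list had a positive difference, from 0.014 to 0.26, with 16 called, among them Ccna2 (0.24, SE 0.037) and Mcm7 (0.22, SE 0.036). Whether the rise of Uhrf1 goes beyond that of dividing cells was not tested.

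The de novo methyltransferase genes Dnmt3a and Dnmt3b differed by -0.056 (SE 0.035, limma adjusted p = 0.320) and -0.062 (SE 0.060, adjusted p = 0.530). Dnmt3b was called without HDAC2 KO replicate 2 (-0.13, adjusted p = 0.0434). Of the TET genes, whose products oxidise 5-methylcytosine, Tet2 differed by 0.095 (SE 0.036, adjusted p = 0.109) and Tet3 by -0.073 (SE 0.054, adjusted p = 0.408). The pair shifted apart by 0.17 within arrays, without overlap between the groups (exact 2-sided permutation p = 0.1, 0.22 adjusted over 11 pairs), but the 2 Tet2 probe sets above the filter had opposite signs.

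None of the 4 genes of polycomb repressive complex 2, which trimethylates H3K27, was called by limma. Of these genes 0 had an unadjusted p under 0.05, where 31.6% of all genes tested did. The catalytic subunit genes Ezh2 and Ezh1 differed by -0.054 (SE 0.046, adjusted p = 0.477) and -0.093 (SE 0.041, adjusted p = 0.162), and the core subunit genes Eed and Suz12 by 0.032 (SE 0.042, adjusted p = 0.646) and 0.033 (SE 0.035, adjusted p = 0.569). Ezh1 alone of the 4 had groups that did not overlap, at 9.54 to 9.63 in control and 9.43 to 9.53 in HDAC2 KO. Ezh2, although tied to dividing cells in many tissues, did not share the positive sign of the proliferation genes. The 95% intervals of the 4 genes, each for the probe set that stands for the gene, lay between -0.19 and 0.13. The second Ezh1 probe set above the filter differed by more, -0.21, again without overlap (SE 0.057, 95% interval -0.35 to -0.079, adjusted p = 0.108 over all probe sets).

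Among the other histone methyltransferase genes, Setdb1 rose and 5 were not called. Setdb1 encodes an H3K9 methyltransferase that silences retroelements. It read 8.19, 8.22 and 8.25 in control and 8.43, 8.35 and 8.40 in HDAC2 KO, with all HDAC2 KO arrays above the controls. The difference was 0.17 (SE 0.036, 1.13-fold, limma adjusted p = 0.0133). The call was lost in 3 of the 6 fits that leave out an array: when control replicate 1 or 2 was left out, the adjusted p was 0.0668 or 0.0503, and when replicate 1 of HDAC2 KO was, 0.0576. It was also not called when the mean of its 3 probe sets stood for the gene (0.078, adjusted p = 0.361), the other 2 of which had mean signals of 4.86 and 5.28, below the filter.

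Kmt2a, which encodes the H3K4 methyltransferase MLL1, read 8.31, 8.28 and 8.22 in control and 8.15, 8.01 and 8.16 in HDAC2 KO. The groups did not overlap, and HDAC2 KO replicate 2 was the lowest. The difference of -0.16 (SE 0.049, limma adjusted p = 0.0564) was not called, although the second probe set of the gene gave the same value, -0.16 (SE 0.080). With the mean of the 2 probe sets it was called (adjusted p = 0.0456).

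The genes of the H3K9 dimethylating pair, Ehmt1 (GLP) and Ehmt2 (G9a), differed by -0.12 (SE 0.043, limma adjusted p = 0.0929) and -0.014 (SE 0.046, adjusted p = 0.874). Ehmt1 was called without control replicate 3 (-0.16, adjusted p = 0.0482). Within arrays the pair shifted by -0.11 without overlap (exact 2-sided permutation p = 0.1, 0.22 adjusted over 11 pairs). The H3K36 methyltransferase genes Nsd1 and Setd2 differed by -0.085 (SE 0.041, adjusted p = 0.201) and -0.044 (SE 0.031, adjusted p = 0.384), with no overlap of the groups for either.

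All 3 histone demethylase genes were lower, and 0 were called by limma. Kdm4a, whose product removes methyl groups from H3K9 and H3K36, read 8.54, 8.59 and 8.56 in control and 8.49, 8.40 and 8.44 in HDAC2 KO. The groups did not overlap, and the difference was -0.12 (SE 0.037, adjusted p = 0.0656). Kdm2b, an H3K36 demethylase that also recruits polycomb complexes to CpG islands, differed by -0.13 (SE 0.051, adjusted p = 0.135) and the H3K27 demethylase gene Kdm6b by -0.068 (SE 0.047, adjusted p = 0.378). At an unadjusted p under 0.05 there were 2, Kdm4a and Kdm2b, where 31.6% of all genes tested had such a p.

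The 5 SWI/SNF genes were all lower, 1 of them called. Arid1a encodes the DNA-binding subunit of canonical BAF. It read 10.52, 10.47 and 10.46 in control and 10.32, 10.31 and 10.38 in HDAC2 KO, and the groups did not overlap. The difference was -0.14 (SE 0.036, 1.11-fold, limma adjusted p = 0.0297), and the second Arid1a probe set was lower by a like amount (-0.20, SE 0.056). With the replicate number as a block the adjusted p was 0.0504. Leaving out HDAC2 KO replicate 3 kept the call, and leaving out any other array gave an adjusted p of 0.0528 to 0.121.

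Arid1b, which encodes the alternative subunit to ARID1A, read 9.76, 9.75 and 9.81 in control and 9.71, 9.52 and 9.73 in HDAC2 KO. The groups did not overlap, but HDAC2 KO replicate 2 stood well below the other two (-0.12, SE 0.058, limma adjusted p = 0.193). The within-array difference of Arid1a and Arid1b shifted by -0.022 (exact 2-sided permutation p = 0.8).

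The ATPase genes Smarca4 (BRG1) and Smarca2 (BRM) differed by -0.014 (SE 0.033, adjusted p = 0.816) and -0.10 (SE 0.078, adjusted p = 0.414), and the core subunit gene Smarcb1 by -0.025 (SE 0.033, adjusted p = 0.651). The 2 Smarca4 probe sets disagreed in size: that of highest signal was flat, whereas the other differed by -0.23 (SE 0.069, adjusted p = 0.142 over all probe sets).

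**Figure D4:**
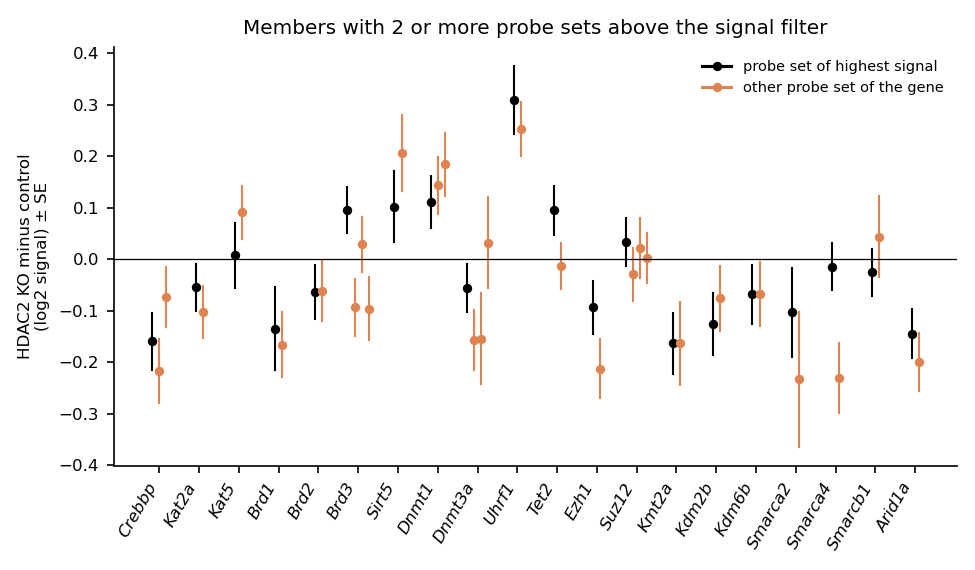
Difference of HDAC2 KO minus control in log2 signal with its SE (vertical axis, fit of all 45037 probe sets, n = 3 arrays per group) for each probe set above the signal filter of the 20 members with at least 2 such probe sets (horizontal axis). Black marks the probe set of highest signal, which stands for the gene, and orange the others. The probe sets of 15 members share a sign, among them Uhrf1, Dnmt1, Crebbp and Arid1a, and those of 5 members do not.

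Across the 20 members with at least 2 probe sets above the filter, 15 had probe sets of a single sign. The 5 with mixed signs were Brd3, Dnmt3a, Tet2, Suz12 and Smarcb1, none of which was called. Of the called genes, Uhrf1, Crebbp and Arid1a had several probe sets above the filter, and Setdb1, Brd9 and Kat6a had 1 each. Each call was made on the probe set of highest signal alone. In the fit of all probe sets, those of Uhrf1 were the only ones called among the members.

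In all, 11 paralog pairs were compared as a measure of unequal change. The within-array difference separated the groups for 5 pairs, which are Kat2a and Kat2b, Brd2 and Brd3, Brd7 and Brd9, Tet2 and Tet3, and Ehmt1 and Ehmt2, each at the smallest p possible (exact 2-sided permutation p = 0.1, 0.22 adjusted over the pairs). No pair could pass 0.05 in this design. The share of pairs so separated among other genes was not computed. For single genes, the groups did not overlap in 37.7% of all genes tested. With the mean of all probe sets for each gene, the shift of Kat2a and Kat2b was 0.0097 (exact p = 0.9) and that of Brd2 and Brd3 was -0.047, and that of Dnmt3a and Dnmt3b turned from 0.0058 to -0.042 (exact p = 0.5). With the probe set of highest signal for each gene, the largest shift was that of Brd7 and Brd9 (-0.19). The shift was then at most 0.039 in size for 4 pairs: Dnmt3a and Dnmt3b, Arid1a and Arid1b, Ep300 and Crebbp, and Ezh1 and Ezh2.

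The downward lean was strongest on a single array. HDAC2 KO replicate 2 was the lowest of the 6 arrays for 22 of the 45 members (48.9%), where it was the lowest for 28.2% of all genes tested. Averaged over the members and set relative to the control mean, signal stood at -0.015, -0.070 and -0.0023 on the 3 HDAC2 KO arrays, against 0.016, 0.00052 and -0.017 on the control arrays. Thus HDAC2 KO replicates 1 and 3 lay within the range of the controls and replicate 2 lay below it. Without HDAC2 KO replicate 2, 29 of the 45 members were lower, 4 were called and the median difference was -0.031, and 29 were likewise lower without control replicate 1. The difference between 3′ and 5′ probe sets of Actb, a sign of RNA degradation, was 0.484 on HDAC2 KO replicate 1, 0.465 on replicate 2 and 0.504 on replicate 3, and 0.493 to 0.511 in control. For Gapdh it was 0.0547 on HDAC2 KO replicate 2, within the control range of 0.0341 to 0.0739.

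**Figure D5:**
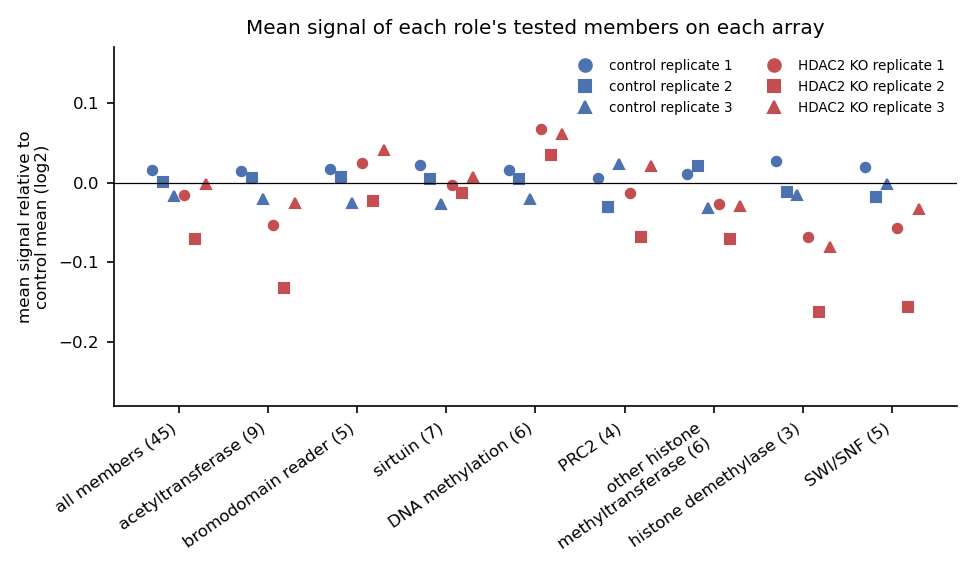
Mean log2 signal of the tested members of each role relative to the control mean (vertical axis) on each of the 6 arrays, with the number of genes in parentheses. Circles, squares and triangles are replicates 1, 2 and 3, blue for control and red for HDAC2 KO. HDAC2 KO replicate 2 is the lowest array for all members together (-0.070), and for the acetyltransferases (-0.13), demethylases (-0.16) and SWI/SNF genes (-0.16), whereas the mean of the genes of DNA methylation, which rests on Uhrf1, lies above the controls on all 3 HDAC2 KO arrays.

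The roles differed in how their HDAC2 KO arrays lay. For the acetyltransferases the role mean was -0.053, -0.13 and -0.026 on the HDAC2 KO arrays and between -0.020 and 0.015 on the controls, so that all 3 lay below. For the histone demethylases it was -0.068, -0.16 and -0.081 (controls -0.015 to 0.027), and for SWI/SNF -0.057, -0.16 and -0.032 (controls -0.018 to 0.019). For the genes of DNA methylation it was 0.067, 0.034 and 0.061 (controls -0.020 to 0.016). That mean rests on Uhrf1: without it, a comparison added after seeing the data, the other 5 genes stood at 0.016, 0.0016 and -0.0092, with a mean difference of 0.0029, and 3 of the 6 genes were lower. The sirtuins lay within the range of the controls on all 3 arrays, at -0.0031, -0.012 and 0.0073.

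Of 190 other genes of the same enzyme classes and complexes, in 8 lists, 171 were tested and 18 were called (10.5%, against 17.9% of all genes). Of the 171, 5 were called higher (2.92%, against 9.68%) and 13 lower (7.6%, against 8.2%). The difference was negative for 111 of the 171 (64.9%, against 48.6%), with a median of -0.029. Other SWI/SNF subunits had 4 of 19 called, Bcl11b (-0.20, SE 0.034), Smarce1 (-0.18, SE 0.040) and Bcl11a (-0.23, SE 0.063) lower and Smarcd3 (0.13, SE 0.036) higher. Bcl11b and Bcl11a are best known from T cells and B cells, and the leukocyte list was lower as given above.

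Other genes of DNA methylation and methyl-CpG binding had 3 of 12 called. These were Hells, and the methyl-CpG binding genes Mbd4 (-0.22, SE 0.035, limma adjusted p = 0.00446) and Mbd1 (-0.20, SE 0.040), both lower. Other histone methyltransferases had 3 of 28 called, Kmt5a (-0.15, SE 0.031) and Kmt2e (-0.19, SE 0.040) lower and Prdm2 (0.17, SE 0.042) higher. Other bromodomain genes had 3 of 17 called, Trim24 (0.20, SE 0.047) higher and Baz2a (-0.13, SE 0.035) and Bptf (-0.15, SE 0.040) lower.

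Other demethylases had 2 of 20 called, Kdm6a (-0.22, SE 0.041, limma adjusted p = 0.00787) and Phf8 (-0.16, SE 0.034), both X-linked. Kdm6a escapes X inactivation. Xist, which is transcribed from the inactive X, was lower in HDAC2 KO (11.52, 11.53 and 11.56, against 12.03, 12.04 and 11.99 in control), and the Y-linked Eif2s3y was higher (8.17, 7.89 and 8.32, against 7.56, 7.48 and 7.52). Kdm5d, a Y-linked demethylase gene outside the list of other demethylases, was higher too (7.71, 7.36 and 7.84, against 6.96, 7.02 and 6.90 in control). It differed by 0.67 (SE 0.11, limma adjusted p = 0.00419). Xist, Eif2s3y and Kdm5d lay above the signal filter on every array, with no detection calls used here. Uty, also Y-linked, lay below the filter at 5.56 to 6.32. A single mouse of either sex would not be expected to express both Xist and a Y-linked gene, and whether samples were pooled is not settled by the labels. The part of sex in the Kdm6a difference, or in any other difference between the groups, was not tested.

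Other acetyltransferases and cofactors had 1 of 27 called, Ncoa3, a nuclear receptor coactivator, lower (-0.20, SE 0.037). Other polycomb genes had 1 of 26 called, Asxl1, a partner of the H2A deubiquitinase BAP1, lower (-0.15, SE 0.032). Other remodellers had 1 of 23 called, Ino80c, a subunit of the INO80 complex, higher (0.23, SE 0.065). All these counts are at a limma adjusted p under 0.05. Of the members, 4 lie on chromosome 10, as Hdac2 does: Sirt1, Sirt6 and Smarcb1, which were not called, and Tet1, which was not tested.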

How the data were processed

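Each of the 6 samples, 3 of control and 3 of HDAC2 KO, was hybridised to a single-colour Affymetrix mouse array. The deposited log2 values were made by the authors with RMA, per the submitters' processing notes, which state no version; that they are log2 was read from their range of 2.39 to 14.6. RMA equalises the arrays' distributions, which hides a shift of all genes, and compresses differences at low signal. Of 45101 probe sets, 64 were array controls; per a platform annotation of 2016, 34945 had a single gene symbol, 932 several and 9160 none. The probe set of highest mean stood for each gene, and genes with a mean at or above the 40th percentile (6.66) were tested in R 4.3.3 by limma's moderated linear model (version 3.58.1, with group as the sole term), after a check of the fit on simulated data. All probe sets of the members were also read from a fit of all 45037 non-control probe sets. Promoter windows came from RefSeq, GRCm38.p6.

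Members were named for their known functions, and they and the related and context lists (12 symbols of which had no probe set of their own) were chosen with earlier results of these data known. Named are all members, with every array for called members, their listed paralogs and the 3 uncalled members of smallest p, and in each related list up to 4 called genes. Arrays for Sirt1, Dnmt1, Xist, Uty, Eif2s3y and Kdm5d, and the probe sets and lowest or highest arrays of other uncalled members, were added after their values were seen. Alternatives were other filters, probe set rules, scalings, variance models and thresholds, a replicate block and leaving out each array. Same-numbered arrays of the 2 groups deviated together over the genes tested (r of 0.21, 0.34 and 0.20, other pairs -0.37 to 0.18). The block used the replicate numbers of the sample titles, which do not state a pairing. The reason to pair same-numbered arrays thus comes from these correlations, and the blocked value is given where it changes a call.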

Additional observations from a re-analysis of the deposited data

How the results depend on the processing

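The call of Uhrf1 was kept in all 17 alternatives; the other 5 calls each failed in 5 to 9 of the 17, and no called member changed sign. The number of members called, 6 of 45 (13.3%, against 17.9% of all genes), was 2 of 46 with no filter on signal (4.35%, against 7.62%). It was 3 (Uhrf1, Setdb1 and Brd9) with arrays centred on their medians (6.67%, against 14.9%). After further quantile normalization it was 10 (22.2%, against 20.5%), and with array weights 12 (26.7%, against 32.1%). It was 1 at an adjusted p under 0.01 (2.22%, against 8.74%) and 12 at an adjusted p under 0.1 (26.7%, against 25.5%). Without single arrays it was between 1 and 5 (2.22% to 11.1%, against 10.4% to 19.5%). With the replicate number as a block it was 4 (8.89%, against 17.8%), Crebbp and Arid1a being lost. The genes called over the transcriptome, 1952, became 954 at 0.01, 3506 with array weights and 1138 to 2125 without single arrays (1943 with the replicate block). Related chromatin genes called, 18, became 5 at 0.01, 31 at 0.1, 47 with array weights, 7 without the filter and 6 to 23 without single arrays. Member probe sets called, 2 of 107, became 9 with an intensity trend and robust variances, 0 to 2 without single arrays, and 0 at 0.01, after centring, without probe sets of several transcripts or with the replicate block. The median difference of the members lay between -0.048 and -0.025 over all alternatives. Signs of uncalled members changed 31 times, in 14 genes. The cause of these changes was not tested, other than that the counts at 0.01 and 0.1 follow from the threshold. Scan dates and scanner files were not used here, and 3 arrays per group, at differences under 0.2, limit which calls can hold.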
